A study of Rattus norvegicus with 23 samples.

Results

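The respiratory chain members are the genes of the electron transport complexes and of ATP synthase, chosen by gene symbol alone from the authors' deposited tables and then followed by identifier in the counts. They are all genes whose symbol begins with Nduf (complex I), Uqcr (complex III), Atp5 (ATP synthase) or Mt- (mitochondrially encoded), with Sdh and a letter from a to d (complex II), or with Cox and a digit from 4 to 8 (complex IV). The rule found 107 of the 32552 gene identifiers in the files, 94 of them nuclear and 13 mitochondrially encoded. It also takes in assembly factors, which help to build a complex without staying in it (Ndufaf and Sdhaf genes), the ATP synthase inhibitor Atp5if1 and the supercomplex factor Cox7a2l. The symbols Cox6b1, Ndufv3 and Uqcrb each stand for 2 identifiers. All 107 are listed in the libraries of differentiating CG4 cells, and 77, all nuclear, are listed in all 23 libraries. No member has the symbol Cox4i2, Cox7a2 or Cox8b.

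The series holds 23 RNA-seq libraries of rat cells in 6 groups. CG4 is an immortalized line that grew out of primary oligodendroglia of the rat brain, and 12 libraries came from CG4 cells after 3 days of differentiation in SATO medium with thyroid hormones and CNTF. Of these, 4 had been transduced with an expression vector that makes GFP alone (pCAG-IRES-EGFP, called control here), 4 with a vector for myc-tagged Zfp488 and GFP, and 4 with a vector for Nkx2.2 and GFP. Another 3 libraries came from wild-type CG4 cells without a vector, kept proliferating with bFGF and PDGF-AA. The remaining libraries are of primary rat oligodendroglia obtained by shake-off from mixed glia, 4 of them proliferating and 4 after 3 days of differentiation, in the same media as the CG4 cells. All 12 differentiating CG4 libraries thus carry a vector and its GFP, which the proliferating CG4 cells lack, and the proliferating CG4 libraries were read with 100 bases per end against 150 in the others. The titles call the libraries biological replicates. Total counts per library ran from 20063345 to 49206479.

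Electrons from NADH enter the chain at complex I and those from succinate at complex II. Ubiquinone carries them to complex III and cytochrome c carries them on to complex IV, which passes them to oxygen, while complexes I, III and IV pump the protons that drive ATP synthase. The mitochondrial genome encodes the hydrophobic cores of complex I (Mt-nd genes), complex III (Mt-cyb), complex IV (Mt-co genes) and ATP synthase (Mt-atp genes) but no part of complex II, and the nucleus encodes all other subunits. Maturing oligodendrocytes make large amounts of membrane lipid and protein for myelin, and mature ones are known to rely heavily on glycolysis and to release lactate.

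Promoter sequences of 81 of the 91 nuclear member symbols were matched in RefSeq (GRCr8, from 250 bases before to 50 after the start). They were searched on both strands for the motifs of NRF1 (GCGC and TGCGC with any base between them), GABPA and other ETS factors (CCGGAAG), YY1 (AAGATGG followed by CGGC) and Nkx2-2 type homeodomains (TNAAGTG), of which the GABPA and YY1 motifs can overlap in the letters AAG. NRF1, GABPA and YY1 are known regulators of nuclear genes of the respiratory chain. The NRF1 motif was found in 17 of the 81 (21.0%) against 4.25% of all 33469 promoters, the GABPA motif in 23 (28.4%) against 8.75%, and the YY1 motif in 8 (9.88%) against 0.675%. The Nkx2-2 type motif was found in 12 (14.8%) against 11.5% of all promoters. The 250 bases before the start are printed for 4 nuclear members that the tests below separate between the vectors, because they show which of these motifs lie next to those genes. Ndufaf1 and Atp5h, also separated there, are not printed. Ndufaf1 holds a GABPA match, and no match was recorded for Atp5h. Motif matches are in capitals.
Ndufs5: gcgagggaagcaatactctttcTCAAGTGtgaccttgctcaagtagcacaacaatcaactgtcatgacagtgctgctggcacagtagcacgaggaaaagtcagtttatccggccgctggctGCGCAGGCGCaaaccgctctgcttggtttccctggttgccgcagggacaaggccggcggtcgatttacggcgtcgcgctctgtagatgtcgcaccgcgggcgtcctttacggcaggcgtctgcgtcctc
Uqcrc1: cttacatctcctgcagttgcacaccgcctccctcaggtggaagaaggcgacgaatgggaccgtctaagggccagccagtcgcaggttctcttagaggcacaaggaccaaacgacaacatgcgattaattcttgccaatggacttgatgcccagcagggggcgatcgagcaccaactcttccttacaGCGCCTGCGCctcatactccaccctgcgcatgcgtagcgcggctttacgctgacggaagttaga
Ndufaf8: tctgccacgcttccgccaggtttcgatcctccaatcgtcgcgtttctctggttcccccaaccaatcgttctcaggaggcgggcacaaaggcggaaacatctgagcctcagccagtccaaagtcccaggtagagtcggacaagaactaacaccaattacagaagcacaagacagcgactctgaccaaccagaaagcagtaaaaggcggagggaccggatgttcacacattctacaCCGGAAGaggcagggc
Sdhb: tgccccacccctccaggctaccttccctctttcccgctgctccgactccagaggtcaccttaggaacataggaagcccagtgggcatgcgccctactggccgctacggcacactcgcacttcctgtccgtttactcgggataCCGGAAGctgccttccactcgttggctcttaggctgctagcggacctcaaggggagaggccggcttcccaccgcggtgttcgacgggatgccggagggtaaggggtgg
In GRCr8 these lie at chr5:141264403-141264652 (minus strand), chr8:118467973-118468222 (plus strand), chr10:105879658-105879907 (plus strand) and chr5:158547684-158547933 (plus strand). Ndufs5 holds an NRF1 match from -129 to -120, counted from the start base as 0, and an Nkx2-2 type match from -228 to -222. Uqcrc1 holds an NRF1 match from -64 to -55. Ndufaf8 has a GABPA match from -16 to -10 and Sdhb has one from -108 to -102. A YY1 match also lies at the start of Uqcrc1 (-1 to 9) and just after the start of Ndufaf8 (2 to 12), beyond the printed bases. A match describes the sequence only, since no binding was measured.

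A change was called where edgeR's quasi-likelihood test gave a Benjamini-Hochberg adjusted p under 0.05 over all genes tested, and changes are log2 fold changes ± SE. Levels are CPM (counts scaled to a common library size, after TMM adjustment) and are compared between libraries for the same gene only, since they are not divided by gene length. The 3 groups of differentiating CG4 cells shared 1 fit. In it Zfp488 stood at 122 to 186 CPM in its own libraries against 23.3 to 54.2 CPM in the others, and Nkx2-2 at 1190 to 1860 CPM in its own against 84.9 to 277 CPM in the others. All 10 markers of the oligodendrocyte lineage were counted in every group. The low filter passed 106 of the 107 members in this fit (not Cox6a2), 75 of 77 in the primary fit (not Cox6a2 and Ndufa4l2), and 76 of 77 in the fits with proliferating CG4 cells. The 2 comparisons of a factor with control, and that of CG4 differentiation, share the control libraries. Leaving out a library is named below where it ends a call.

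Of the 13 mitochondrially encoded transcripts 4 differed between the factors, where 25.3% of all genes were called (13.3% higher, 12% lower). All 4 belong to complex I. With Nkx2.2 all 7 Mt-nd transcripts had fitted values above control, 0.09 to 0.39 on the log2 scale, and all 6 others (Mt-cyb, Mt-co1 to Mt-co3, Mt-atp6 and Mt-atp8) had values below it, -0.25 to -0.01, except that Mt-co2 (0.06) and Mt-atp8 (0.05) lay above it when scaled by library totals. With Zfp488 12 of the 13 (all but Mt-nd6, which was also below, at -0.04, under library totals) had values below control, with a median of -0.22 against -0.02 over all genes, and none passed the test. Compared directly, 4 Mt-nd transcripts were lower with Zfp488 than with Nkx2.2: Mt-nd4l, Mt-nd1, Mt-nd4 and Mt-nd5, which encode membrane subunits of complex I. The Mt-nd share of all mitochondrially encoded counts was 15.9, 15.5, 14.4 and 15.1% in control libraries 1 to 4 (15.2% ± 0.64, SD, n = 4). It was 17.2, 16.9, 14.6 and 16.6% with Zfp488 (16.3% ± 1.18, SD, n = 4) and 20.9, 19.9, 18.4 and 19.9% with Nkx2.2 (19.8% ± 1.03, SD, n = 4). The lowest Nkx2.2 library lay above the highest of the other 8. This share was chosen after the values were seen and was not tested.

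Summed CPM show the same division as levels. The 7 Mt-nd transcripts summed to 5483 to 7714 CPM in control, 6663 to 9427 CPM with Nkx2.2 and 5332 to 6543 CPM with Zfp488. The other 6 summed to 29970 to 45810 CPM in control, 25150 to 41930 CPM with Nkx2.2 and 26840 to 38210 CPM with Zfp488. The groups overlap in both sums, apart from the Mt-nd sums of Nkx2.2 and Zfp488, where the lowest Nkx2.2 library lay above the highest Zfp488 library. The libraries numbered 3 held the highest mitochondrially encoded share of all counts in each group (5.23% in control, 4.12% with Zfp488 and 5.23% with Nkx2.2, against 3.05 to 4.74% in the others).

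**Figure D1:**
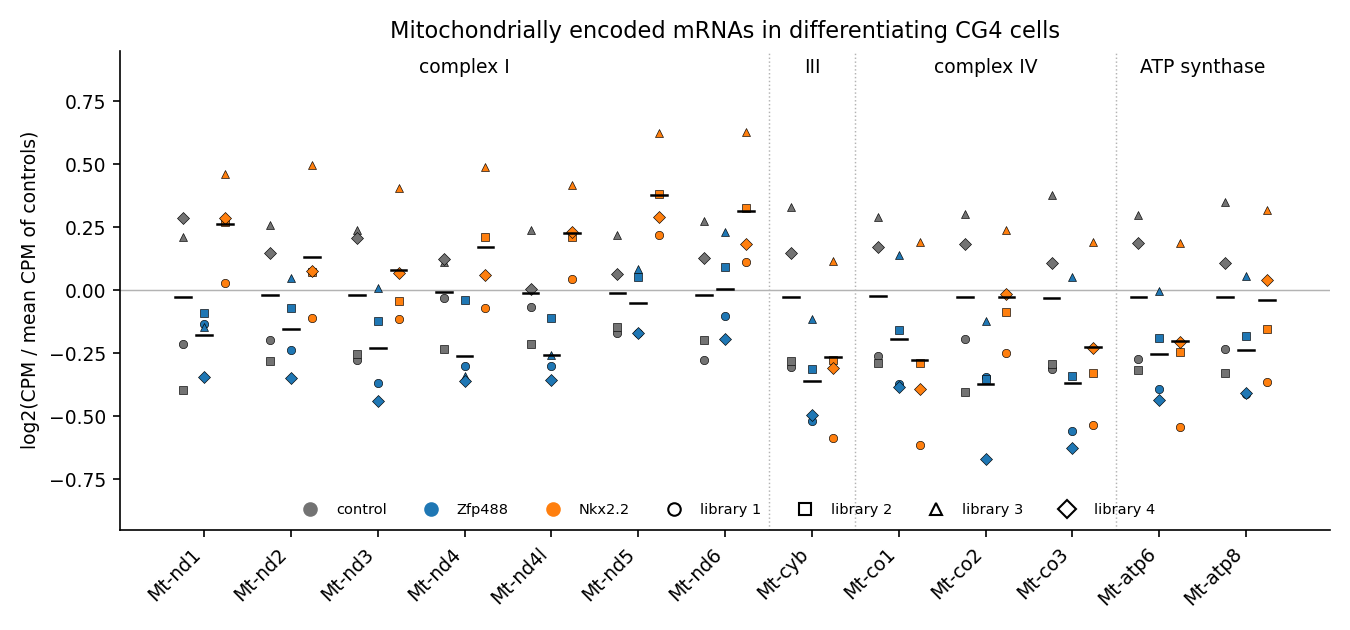
Each point is 1 library of differentiating CG4 cells; the vertical axis is the log2 ratio of its CPM to the mean CPM of the 4 control libraries, the marker shape is the library number and the bar is the group mean. The bars of Nkx2.2 stand above those of control for the 7 Mt-nd transcripts and at or below them for the other 6 (under library totals Mt-co2 and Mt-atp8 lie slightly above), and the triangles of Nkx2.2 (library 3) are the highest of that group in all 13 genes.

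Mt-nd5, a proton-pumping subunit of complex I, stood at 1200, 1220, 1570 and 1410 CPM in control, at 1200, 1400, 1430 and 1200 CPM with Zfp488 and at 1570, 1760, 2080 and 1650 CPM with Nkx2.2. All 4 Nkx2.2 libraries were at or above the highest control and above every Zfp488 library. The log2 difference between Zfp488 and Nkx2.2 was -0.43 ± 0.12 (edgeR adjusted p = 0.0196, and 0.0604 without Zfp488 library 4), and that between Nkx2.2 and control was 0.39 ± 0.12 (adjusted p = 0.0586). Mt-nd4l, a small subunit of the complex I membrane arm, stood at 311, 281, 385 and 327 CPM in control. It stood at 265, 302, 273 and 255 CPM with Zfp488 and at 336, 377, 435 and 383 CPM with Nkx2.2. Every Zfp488 library was below every Nkx2.2 library, by -0.48 ± 0.11 (adjusted p = 0.00677, at most 0.0244 with any of the 12 libraries left out), and control overlapped both. Mt-nd1, next to the site where ubiquinone binds, was lower by -0.45 ± 0.15 (adjusted p = 0.046). That call was lost, at up to 0.122, without any single Zfp488 library or without Nkx2.2 library 2, 3 or 4. Mt-nd4 was lower by -0.44 ± 0.13 (adjusted p = 0.0244), which was lost, at up to 0.0705, without Zfp488 library 3 or 4 or Nkx2.2 library 2.

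With the library number as a block, which the paired deviations of these 12 libraries allow, Mt-nd5 (0.39, adjusted p = 0.00469) and Mt-nd6 (0.33, adjusted p = 0.0235) rose with Nkx2.2 against control. Mt-co3 (-0.34, adjusted p = 0.0344) and Mt-cyb (-0.34, adjusted p = 0.0349) fell with Zfp488 against control. Between the factors the block called all 7 Mt-nd transcripts lower with Zfp488 and none of the other 6. Of all genes the block called 42.4% between the factors (22.0% higher, 20.3% lower). Against control it called 26.2% with Nkx2.2 and 24.1% with Zfp488. Mt-cyb encodes cytochrome b of complex III and Mt-co3 a core subunit of complex IV. Scaling by library totals alone gave Mt-nd5 a log2 difference of 0.46 (edgeR adjusted p = 0.0151) for Nkx2.2 against control. It also called Mt-co2 lower with Zfp488 than with Nkx2.2, so that 8 of the 13 were lower. Of all genes 30.4% were then called between the factors (8.59% higher, 21.8% lower).

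Among the nuclear members few transcripts differed from control in the fit without the block, and by small amounts. With Nkx2.2, Ndufs5, an accessory subunit of complex I, and Uqcrc1, a core protein of complex III, fell, and Ndufaf8, which takes part in complex I assembly, rose. These are 3 of the 106 members tested, against 10.6% of all genes called in that comparison (6.10% higher, 4.48% lower). The member median was -0.07 against -0.01 over all genes, and 33 of the 106 lay above the all-gene median. With Zfp488, 0 of 106 changed against control by edgeR, where 9.04% of all genes were called (5.89% higher, 3.15% lower). At an unadjusted p under 0.05 there were 6 members, DESeq2 called 1 (Atp5h, higher), and edgeR called 1 without control library 4. With the library number as a block, 5 members were called for Zfp488 and 14 for Nkx2.2 against control, as described below.

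Ndufs5 stood at 51.5, 49.9, 51.4 and 56.8 CPM in control, at 49.2, 48.3, 52.5 and 42.6 CPM with Zfp488 and at 38.0, 38.8, 42.9 and 43.1 CPM with Nkx2.2. The Nkx2.2 libraries were all below the control libraries, while the Zfp488 group overlapped both. The fall with Nkx2.2 was -0.36 ± 0.08 (edgeR adjusted p = 0.0127) and was kept without each library in turn, at up to 0.0402. Against Nkx2.2, Zfp488 was higher by 0.24 ± 0.08 (adjusted p = 0.0451), a call that was lost, at up to 0.122, without control library 1, 2 or 3, Zfp488 library 1, 2 or 3, or Nkx2.2 library 1, 2 or 4. Uqcrc1 stood at 241, 224, 229 and 259 CPM in control, at 222, 239, 233 and 236 CPM with Zfp488 and at 198, 183, 212 and 186 CPM with Nkx2.2. All Nkx2.2 libraries were below all others. The fall was -0.29 ± 0.07 (adjusted p = 0.0231), lost at up to 0.0807 without control library 1 or 4 or Nkx2.2 library 2 or 4. Under library totals it was -0.22 (adjusted p = 0.0714). Zfp488 was higher than Nkx2.2 by 0.25 ± 0.07 (adjusted p = 0.0221), lost at up to 0.0724 without Zfp488 library 2 or 4 or Nkx2.2 library 2 or 4.

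Ndufaf8 stood at 6.95, 6.79, 7.12 and 8.0 CPM in control, at 7.35, 7.87, 9.38 and 7.95 CPM with Zfp488 and at 9.29, 9.05, 9.85 and 10.9 CPM with Nkx2.2. All Nkx2.2 libraries were above the control libraries. The rise was 0.44 ± 0.11 (edgeR adjusted p = 0.0271) and was lost, at up to 0.0929, without control library 1, 2 or 3 or Nkx2.2 library 4. The count of 3 became 1 without Nkx2.2 library 4 and 7 without Nkx2.2 library 3, and 7 without all libraries numbered 3. With the replicate block it became 14, 3 higher and 11 lower, where 26.2% of all genes were called (12.6% higher, 13.5% lower). The 11 lower ones included 3 subunits of complex II: Sdha (-0.23, adjusted p = 0.0135), which binds FAD and succinate, Sdhb (-0.21, 0.038), which carries the iron-sulphur clusters, and Sdhd (-0.23, 0.0221), a membrane anchor. Cox7a2l was also among them (-0.26, 0.0139). In the fit without the block the adjusted p values of the 3 subunits were 0.1, 0.108 and 0.245. The 7 nuclear core subunits of complex I had no fitted value above 0 with Nkx2.2 (Ndufs3 and Ndufv1 had 0.07 and 0.02 under library totals), and none passed the test. With library totals alone the calls split into 2 higher and 1 lower, where 11.0% of all genes were called (7.92% higher, 3.05% lower).

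Compared directly, Zfp488 and Nkx2.2 differed in 5 nuclear members, all higher with Zfp488, which with the 4 Mt-nd transcripts makes 9 of 106, against 25.3% of all genes (13.3% higher, 12% lower). Besides Ndufs5 and Uqcrc1 these were Ndufaf1, an assembly factor of complex I, Sdhb, and Atp5h, a subunit of the stalk of ATP synthase. Ndufaf1 stood at 23.4, 26.1, 27.0 and 22.8 CPM with Zfp488 and at 15.4, 17.4, 21.3 and 17.1 CPM with Nkx2.2, with control between or within them at 17.4, 20.3, 21.6 and 21.1 CPM. The Zfp488 libraries were above all 8 others, and the difference from Nkx2.2 was 0.48 ± 0.11 (edgeR adjusted p = 0.00815, at most 0.0268 without any library). Sdhb stood at 180, 180, 184 and 187 CPM with Zfp488, at 134, 141, 170 and 143 CPM with Nkx2.2 and at 164, 165, 169 and 182 CPM in control. Its difference was 0.31 ± 0.08 (adjusted p = 0.0112, at most 0.0366 without any library), and the 2 factor groups did not overlap. Atp5h stood at 209, 224, 212 and 198 CPM with Zfp488, at 169, 170, 189 and 175 CPM with Nkx2.2 and at 182, 181, 184 and 201 CPM in control. Its difference was 0.26 ± 0.07 (adjusted p = 0.0155, and 0.0518 without Zfp488 library 2).

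The count of 9 became 5 without Nkx2.2 library 2 and 14 without Nkx2.2 library 3. With the replicate block it became 21, 13 higher and 8 lower, where 42.4% of all genes were called (22.0% higher, 20.3% lower). The block also called 5 members for Zfp488 against control, where 24.1% of all genes were called (14.0% higher, 10.2% lower). Among these were Ndufaf1 (0.31, adjusted p = 0.0154), the flavoprotein subunit Ndufv3 (0.21, 0.0392) and Ndufc2, an accessory subunit of complex I (0.28, 0.0408), all higher, beside Mt-co3 and Mt-cyb. Scaling by library totals moved the median of all genes to -0.14 and gave 1 higher (Ndufaf1) and 12 lower members, where 30.4% of all genes were called (8.59% higher, 21.8% lower). In that scaling Sdhb (0.19, adjusted p = 0.0602), Uqcrc1 (0.12, 0.199), Atp5h (0.13, 0.153) and Ndufs5 (0.11, 0.275) stayed above 0 without passing the test.

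**Figure D2:**
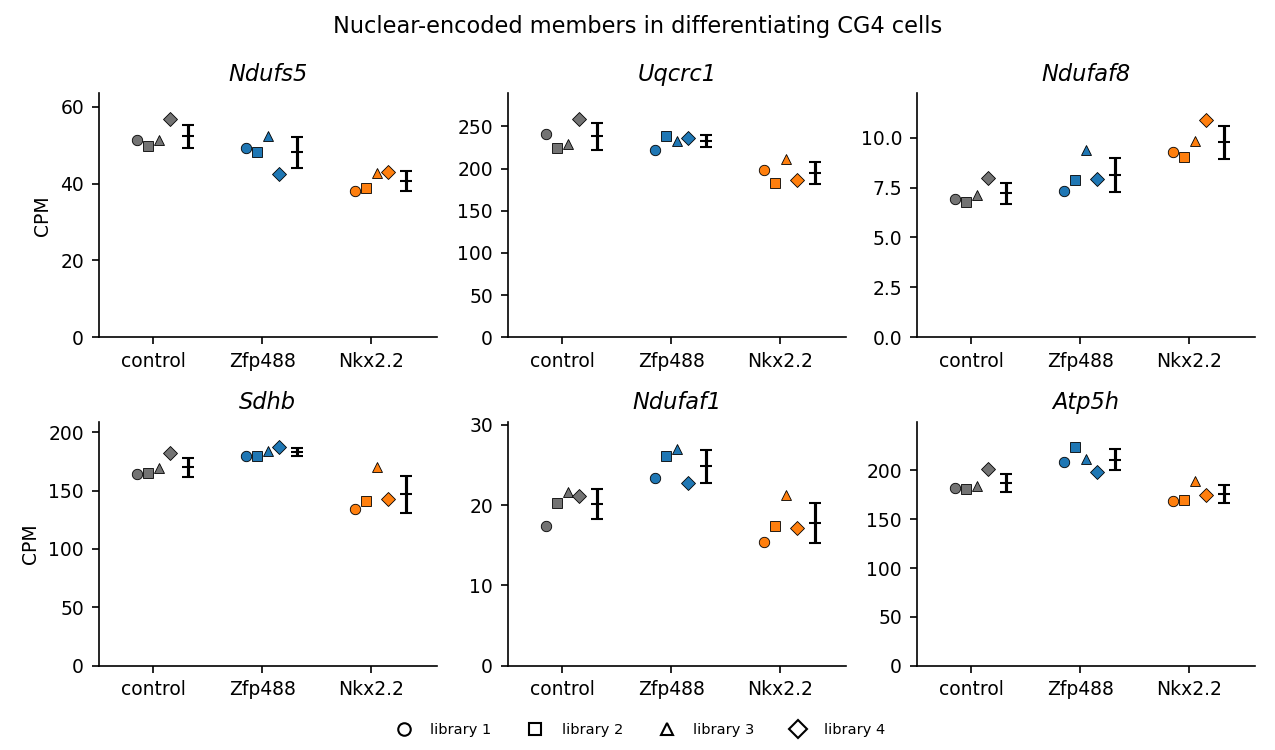
The 6 nuclear members called in a comparison of the vectors, in CPM from 0 (vertical axes), with 1 point per library, its shape giving the library number, and the mean ± SD of the 4 libraries beside each group. Nkx2.2 libraries are the lowest in Ndufs5 and Uqcrc1 and the highest in Ndufaf8 when set against control, and Zfp488 libraries lie above those of Nkx2.2 in Sdhb, Ndufaf1 and Atp5h.

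Several subunits have forms made in different tissues. Cox6a1, the general form of subunit VIa of complex IV, stood at 618 to 947 CPM over the 12 libraries, and Cox4i1, the general form of subunit IV, at 305 to 429 CPM. Cox6a2, the form of heart and skeletal muscle, had 1, 0, 3 and 1 counts in control, 4, 1, 2 and 4 counts with Zfp488, and 65, 30, 6 and 20 counts with Nkx2.2. All 4 Nkx2.2 libraries exceeded the other 8, though at 0.189 to 1.52 CPM, and the gene was too low for the filter and was not tested here. The authors' deposited table gives it a log2 fold change of 4.79 for Nkx2.2 against control, with an adjusted p of 9.53e-06. Cox7a1, the muscle form of subunit VIIa, stood at 0.209 to 0.543 CPM and Cox6b2, the testis form of subunit VIb, at 2.13 to 6.99 CPM over the 12 libraries. Ndufa4, a subunit now assigned to complex IV, stood at 126 to 164 CPM, and its relative Ndufa4l2, known as a target of hypoxia signalling, at or below 1.41 CPM. Neither passed the test with either factor, and Ndufa4l2 had fitted values of -0.43 ± 0.24 with Zfp488 and -0.51 ± 0.24 with Nkx2.2. The c ring of ATP synthase is made from Atp5mc1, Atp5mc2 and Atp5mc3, which differ in their targeting peptides and encode the same mature protein. Their fitted values were -0.12, -0.20 and 0.02 with Zfp488 and 0.03, -0.13 and -0.05 with Nkx2.2. Atp5if1, which blocks ATP synthase from running backwards, had -0.08 ± 0.10 and -0.03 ± 0.10.

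Markers of other cells and of the lineage also moved with the vectors. The 10 lineage markers summed to 11340 to 17310 CPM in control, 17670 to 29940 CPM with Zfp488 and 7607 to 17150 CPM with Nkx2.2. The 4 proliferation markers summed to 284.6 to 350.6, 253.2 to 373.1 and 350.3 to 448.5 CPM in the same order. Of 6 markers of fibroblasts, pericytes and endothelium 2 were listed, at 2.804 to 11.32, 10.27 to 31.94 and 8.242 to 14.22 CPM, and the 5 of 6 astrocyte markers listed summed to 264.9 to 2014, 376.9 to 1613 and 208.4 to 2140 CPM. The 2 of 6 microglia markers listed stayed at or below 8.125 CPM and the 4 of 5 neuron markers listed at 67.1 to 250.6 CPM. Tested singly, 3 of 5 astrocyte markers were higher with Zfp488 than with Nkx2.2 (median 2.02). In that comparison 3 of 4 proliferation markers were lower (median -0.48), and of 10 lineage markers 4 were higher and 2 lower. Of 2 markers of fibroblasts, pericytes and endothelium 1 was higher, and 0 microglia or neuron markers passed. Of all genes 25.3% were called there. The part of these shifts in the differences above was not tested. In bulk RNA, fewer cells of a type and less RNA per cell cannot be told apart.

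Of 20 tested genes for pyruvate entry and the citric acid cycle, which feed the chain, 7 were higher and 1 lower with Zfp488 than with Nkx2.2, where 25.3% of all genes were called. The list's median was 0.19 against -0.01 over all genes. The pyruvate dehydrogenase subunits Pdha1 (0.59 ± 0.16, edgeR adjusted p = 0.0163) and Pdhb (0.31 ± 0.08, 0.014) and the succinyl-CoA ligase subunit Suclg2 (0.34 ± 0.07, 0.00551) were higher. Pyruvate carboxylase, Pc, was lower (-0.48 ± 0.14, 0.022). Of 5 kinases and phosphatases of pyruvate dehydrogenase, 3 were higher: Pdk1 (0.68 ± 0.16), Pdk2 (0.82 ± 0.19) and Pdk3 (0.58 ± 0.09), which inhibit the enzyme. Under library totals, where 30.4% of all genes were called, the pyruvate and cycle list split into 1 higher and 2 lower, and the kinase list gave 3 higher. With the replicate block, where 42.4% of all genes were called, they gave 11 higher and 1 lower, and 4 higher. Of 12 biogenesis regulators 1 was higher and 1 lower with Zfp488 than with control, where 9.04% of all genes were called. Set against Nkx2.2, 1 was higher and 3 lower with Zfp488, where 25.3% of all genes were called. Among them Ppargc1a, a coactivator of mitochondrial biogenesis, was higher with Zfp488 than with control (0.93 ± 0.27, edgeR adjusted p = 0.0482). Ppargc1a was also higher than with Nkx2.2 (1.35 ± 0.27, 0.00395), at a mean of 2.02 CPM. Of 39 genes for cytochrome c, ubiquinone synthesis and complex III or IV assembly, 1 was higher and 2 lower with Zfp488 against control. With Nkx2.2 against control 0 were higher and 3 lower. Among them Higd1a, a small protein that associates with complexes III and IV, was higher with Zfp488 (0.28 ± 0.07 against control, 0.0284). It was lower with Nkx2.2 (-0.30 ± 0.07, 0.0143). Of 71 mitochondrial ribosomal proteins 0 passed with Zfp488 and 2, Mrps9 and Mrpl22, fell with Nkx2.2, both against control. In these comparisons 9.04% and 10.6% of all genes were called. With the replicate block 1 was lower with Zfp488, and 1 was higher and 10 lower with Nkx2.2. The block called 24.1% and 26.2% of all genes there.

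In primary oligodendroglia the nuclear members were called about as often as all genes on differentiation, but mostly upward when set against the middle of all genes. Of 75 members tested 57 rose and 6 fell, where 84.8% of all genes were called (41.5% higher, 43.3% lower). The member median was 0.34 against -0.02 over all genes, and 68 of 75 lay above the all-gene median. The member quartiles, 0.16 and 0.50, lie inside those of all genes, -0.78 and 0.68. Scaled by library totals alone, 13 rose and 44 fell, where 87.9% of all genes were called (24.4% higher, 63.5% lower). The member median was then -0.17 and the all-gene median -0.52. The 10 most counted genes held 4.3 to 4.42% of counts in proliferating and 11.8 to 13.1% in differentiating cells. The nuclear members held 1.02 to 1.04% of the counts in proliferating and 0.926 to 0.945% in differentiating cells. They thus rose against the typical gene while their share of all counts fell.

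Under TMM scaling each complex held called rises, beside 84.8% of all genes called (41.5% higher, 43.3% lower). Of complex I 23 of 29 tested nuclear subunits rose and 2 fell, and of complex II all 4 rose. Of complex III only 3 of 7 rose and 4 did not pass. Of complex IV 10 of 12 rose, and of ATP synthase 11 of 14 rose and the inhibitor fell. Of 9 assembly factors 6 rose and 3 fell. Under library totals alone only 19 of the 63 members called in primary cells passed in the same direction. Among the rises that turned were Cox4i1 (0.19 to -0.31), Sdha (0.40 to -0.10) and Sdhb (0.20 to -0.31).

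**Figure D3:**
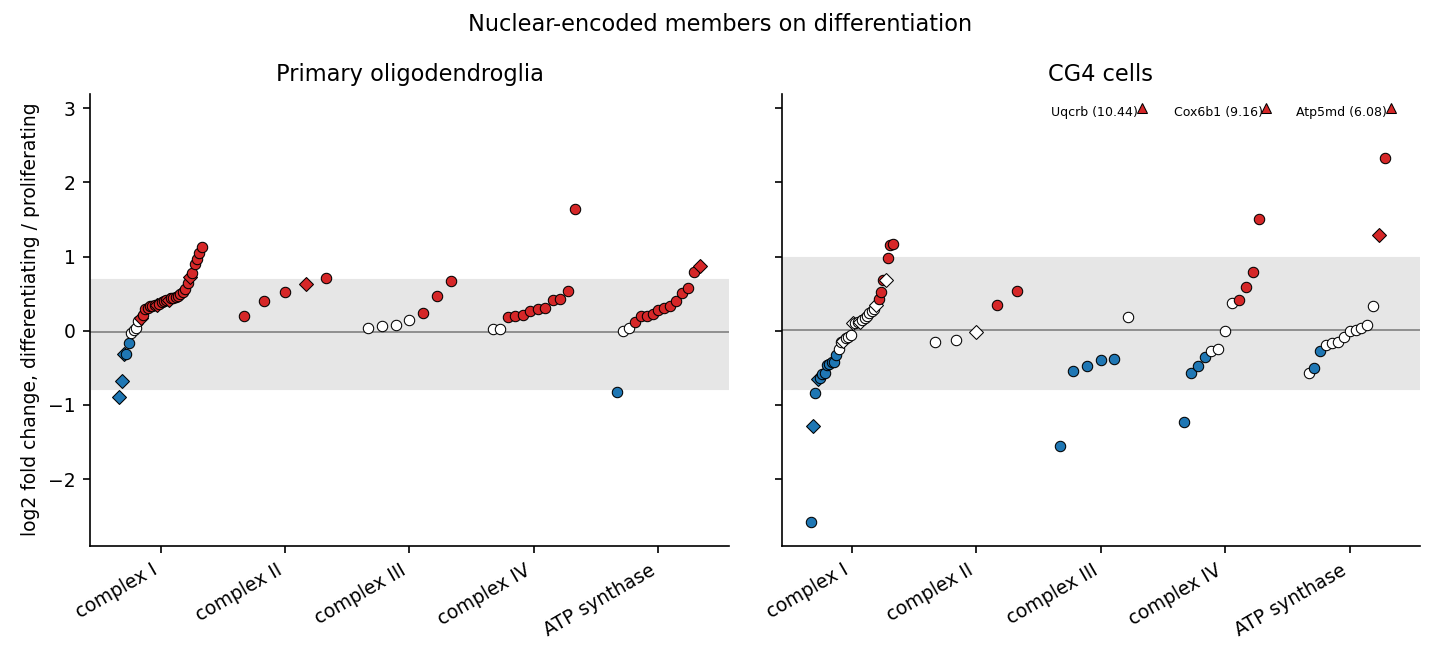
Each point is a nuclear member (diamonds: assembly factors), placed by its log2 fold change between differentiating and proliferating cells under TMM scaling, sorted within its complex. Red and blue points passed the test upward and downward, white ones did not, the grey band holds the middle of all genes between their quartiles (-0.78 to 0.68 in primary and -0.79 to 0.98 in CG4 cells), and triangles mark 3 identifiers beyond the axis. Primary members gather above 0, where 57 rose, though 44 fell and 13 rose when scaled by library totals, and CG4 members scatter to both sides.

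Cox6c, a small subunit of complex IV, rose more than any other member tested here in primary cells. It stood at 65.5, 67.3, 59.2 and 61.7 CPM in proliferating and at 185, 207, 192 and 184 CPM in differentiating cells, a change of 1.64 ± 0.05 (3.12-fold, edgeR adjusted p = 2.09e-10). The groups lie far apart. Ndufc2 rose from 61.2, 62.9, 64.2 and 62.6 CPM to 141, 137, 128 and 123 CPM (1.12 ± 0.05, adjusted p = 1.04e-09). Ndufs4, an accessory subunit needed to finish complex I, rose from 60.8, 59.9, 59.9 and 59.7 CPM to 117, 122, 107 and 109 CPM (0.97 ± 0.04, 2.95e-09). Other large rises were those of Ndufv3 (2.07-fold), of the core subunit Ndufv2 (0.78 ± 0.05), which holds an iron-sulphur cluster, and of Atp5i (0.79 ± 0.04) in the membrane part of ATP synthase. Within complex I the core did not move evenly: 4 of 7 core subunits rose, while Ndufs1 (0.01 ± 0.04), Ndufs3 (0.04 ± 0.05) and Ndufs7 (0.13 ± 0.06) did not pass. Under TMM scaling complex II rose in all parts, with Sdha at 0.40 ± 0.05 and Sdhb at 0.20 ± 0.04. The membrane anchors Sdhc and Sdhd rose by 0.72 ± 0.04 and 0.52 ± 0.04. Sdha and Sdhb turned the other way under library totals, as given above. Sdhc stood at 147, 150, 147 and 142 CPM before and 240, 235, 227 and 233 CPM after.

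The 6 members that fell were the ATP synthase inhibitor, 3 assembly factors and 2 subunits of complex I. Atp5if1 stood at 79.3, 75.5, 80.7 and 79.1 CPM in proliferating and at 43.8, 39.9, 45.5 and 42.4 CPM in differentiating cells, a change of -0.83 ± 0.05 (edgeR adjusted p = 2.37e-08). The complex I assembly factors Ndufaf2 (-0.89 ± 0.09), Ndufaf4 (-0.68 ± 0.05) and Ndufaf6 (-0.32 ± 0.10) fell, and Ndufaf1 (0.72 ± 0.08), Ndufaf3 (0.35 ± 0.06) and Ndufaf7 (0.42 ± 0.04), which also serve complex I assembly, rose. Ndufaf2 stood at 19.4, 19.7, 17.9 and 18.8 CPM before and at 8.53, 9.5, 10.3 and 11.7 CPM after. Ndufab1, the acyl carrier protein that also sits in complex I, fell by 0.32 ± 0.04, and Ndufa11 fell by 0.16 ± 0.04. These 6 were lower under both scalings. Of the rises, that of Atp5mc3 (0.12 ± 0.04) was lost without proliferating library 4 (adjusted p = 0.0618), and that of Ndufaf5 (0.17 ± 0.07) was lost, at up to 0.121, without proliferating library 1, 3 or 4 or differentiating library 1 or 2.

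Other cell types changed in these cultures too. The 2 microglia markers listed of 6 (Csf1r and Cd68) summed to 437.2 to 455.6 CPM in proliferating and 17.67 to 23.84 CPM in differentiating cells. The 5 of 6 astrocyte markers listed summed to 168.1 to 179.7 and 1043 to 2120 CPM. The 2 of 6 markers of fibroblasts, pericytes and endothelium summed to 56.53 to 78.06 and 5.449 to 10.43 CPM. The 4 of 5 neuron markers listed summed to 91.81 to 97.97 and 93.92 to 107.2 CPM. Singly, 1 neuron marker was called higher and 3 lower, with a median of -1.76, where 84.8% of all genes were called. Lineage markers summed to 4582 to 4905 and 88110 to 100300 CPM, and proliferation markers to 1188 to 1264 and 398.3 to 422.8 CPM. Their part in the changes of the members was not tested. The differentiating libraries also form close pairs, 1 with 2 and 3 with 4, and summing each pair gave 64 of 76 members called, 58 higher and 6 lower.

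The lists around the chain are likewise read against the 84.8% of all genes called (41.5% higher, 43.3% lower). Of 20 genes for pyruvate entry and the citric acid cycle 15 rose and 4 fell, with a median of 0.51 (10 and 10 under library totals). Among them were Pc (1.94 ± 0.05), the pyruvate carrier genes Mpc1 (1.65 ± 0.05) and Mpc2 (1.32 ± 0.04), and Pdhx (1.67 ± 0.06), a binding protein of the pyruvate dehydrogenase complex. Pdk2 rose as well (3.11 ± 0.14). Of 23 genes for maintenance and transcription of mitochondrial DNA 2 rose and 12 fell (0 and 23 under library totals), with falls in Polg, the mitochondrial DNA polymerase (-0.83 ± 0.05), and Tfam, which packages mitochondrial DNA (-0.48 ± 0.04). Mitochondrial ribosomal proteins divided, 18 of 64 up and 24 down (2 and 57 under library totals). Of 12 biogenesis regulators 4 rose and 5 fell (2 and 7), with falls in Esrra (-1.60 ± 0.04), Pprc1 (-1.29 ± 0.04) and Nrf1 (-0.67 ± 0.04), which encode nuclear factors or coactivators for respiratory genes, and a rise in Ppargc1a (3.48 ± 0.20, mean 1.89 CPM). Of 32 genes for cytochrome c, ubiquinone synthesis and assembly of complexes III and IV 16 rose and 10 fell (6 and 22). Higd1a rose (1.38 ± 0.04), and Bcs1l, which inserts the Rieske protein into complex III, fell (-1.22 ± 0.07).

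**Figure D4:**
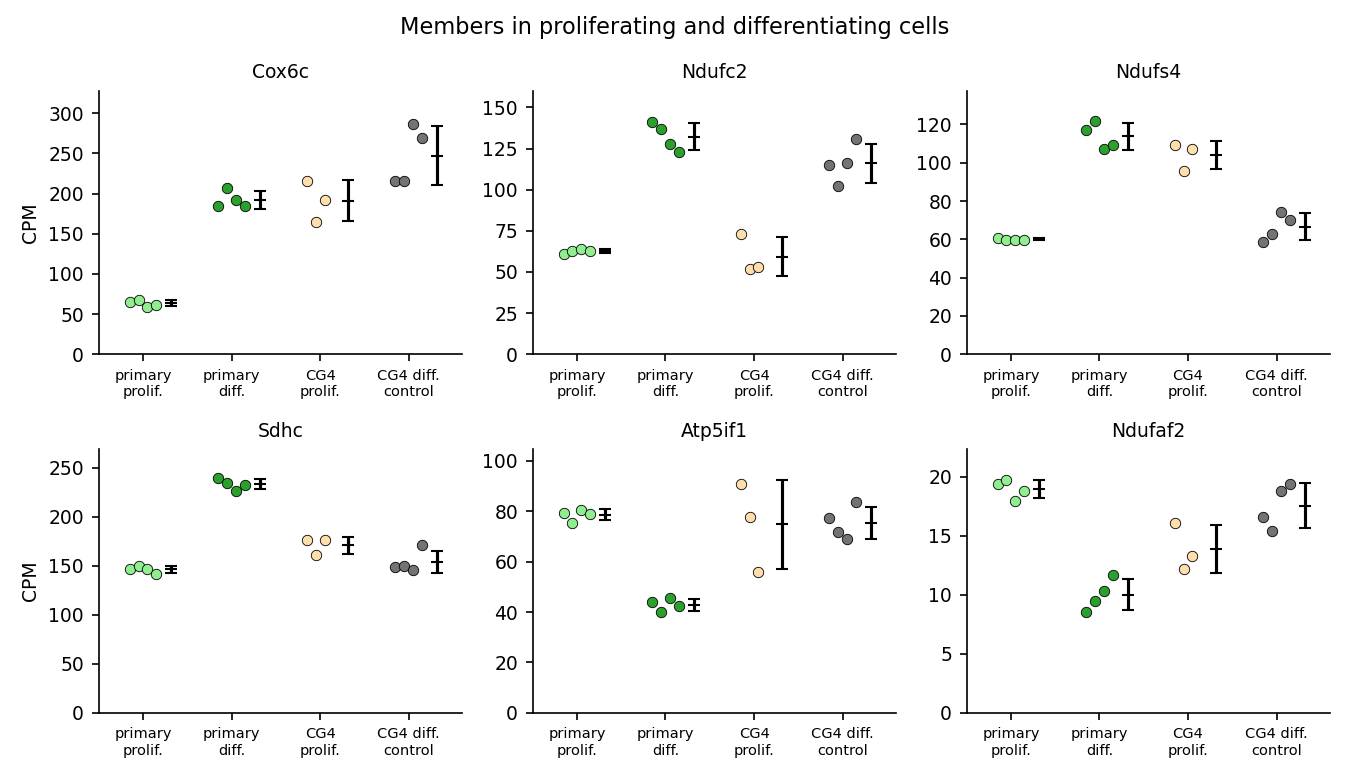
Levels in CPM from 0 (vertical axes) of 6 members in the 15 libraries of proliferating and differentiating cells, with 1 point per library and the mean ± SD beside each group (n = 3 for proliferating CG4 cells, otherwise 4). Cox6c, Ndufc2, Ndufs4 and Sdhc are higher and Atp5if1 and Ndufaf2 lower in differentiating primary cells, while in CG4 cells Ndufc2 is higher and Ndufs4 lower after differentiation.

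In CG4 cells the nuclear members scattered to both sides. Between control differentiating and proliferating cells 17 of 76 were higher and 23 lower, where 65.8% of all genes were called (32.5% higher, 33.2% lower). The member median was -0.04 against 0.01 over all genes. Complex III had 1 higher and 5 lower of 7 tested, complex I 6 and 10 of 29, complex IV 5 and 4 of 13, ATP synthase 2 and 2 of 14, and complex II 2 and 0 of 4. These counts include identifiers of Uqcrb, Cox6b1, Atp5md, Atp5c1 and Ndufa12, whose values are uncertain, as given below. Among them are the 1 higher of complex III and the 2 higher of ATP synthase. The vector and the read length differ between these groups and cannot be told apart from differentiation. Leaving out each library in turn gave 31 to 39 calls.

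Among the members higher in differentiating CG4 cells was Cox6a1, at 788, 719, 818 and 1010 CPM against 287, 316 and 275 CPM in proliferating cells (1.51 ± 0.15, edgeR adjusted p = 5.98e-05). The groups do not overlap. Ndufv3 (1.15 ± 0.14), Ndufc2 (0.98 ± 0.15) and the core subunit Ndufs7 (1.17 ± 0.24), which lies next to the ubiquinone site, were also higher. Of complex II, Sdhb was higher (0.54 ± 0.10, adjusted p = 0.00138), and Sdha was higher by 0.35 ± 0.12 (0.034). The call for Sdha was lost, at up to 0.102, without control library 2, 3 or 4 or proliferating library 2 or 3. Sdhc (-0.15 ± 0.10) and Sdhd (-0.12 ± 0.12) did not pass. Ndufs4 stood at 58.7, 62.9, 74.4 and 70.1 CPM against 109, 95.6 and 107 CPM in proliferating cells, lower by -0.64 ± 0.12 (0.00159). Cox7b, a small subunit of complex IV, was lower by -1.23 ± 0.12 (6.66e-05) and the assembly factor Ndufaf5 by -1.29 ± 0.15 (0.000125). Cox4i1 was higher (0.59 ± 0.11), Ndufa4 lower (-0.56 ± 0.11), and Atp5if1 did not pass (0.01 ± 0.17).

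The widest gaps in this comparison belonged to identifiers that share a symbol with another identifier or have named pseudogenes. Many other members also have named pseudogenes, as given below, and sequences of copies were not compared. The Uqcrb identifier ENSRNOG00000032204 had 4 counts in all 3 proliferating CG4 libraries together (0, 0.0306 and 0.0706 CPM) against 46.6 to 59.9 CPM in control, a ratio of 1520 with a 95% interval of 595 to 5590 that covers counting error only. The other Uqcrb identifier, ENSRNOG00000024967, went the other way, with 160, 103 and 117 CPM in proliferating cells and 43.7, 36.4, 41.3 and 50.7 CPM in control. Summed, Uqcrb stood at 103 to 160 CPM in proliferating and 82.9 to 111 CPM in control libraries. The Cox6b1 identifier ENSRNOG00000034161 had 2 counts in proliferating CG4 cells against 10.8 to 12.7 CPM in control, a ratio of 640 (177 to 5290). The main Cox6b1 identifier, ENSRNOG00000024309, stood at 137, 146 and 140 CPM against 129 to 157 CPM.

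Atp5md, a small subunit of the ATP synthase membrane part, stood at 0.400, 0.153 and 0.0706 CPM in proliferating CG4 cells against 14.8, 13.4, 13.2 and 16.2 CPM in control (6.08 ± 0.50). Atp5c1, the gamma subunit of the rotor, stood at 31.0, 43.4 and 28.5 CPM against 175, 159, 169 and 186 CPM (2.33 ± 0.17). Ndufa12 went the other way, with 78.5, 80.7 and 65.0 CPM against 10.4, 12.2, 13.6 and 13.9 CPM (-2.58 ± 0.15). For these identifiers the proliferating CG4 libraries stood apart from the 12 others, primary cells included: primary cells had 8.39 to 11.5 CPM of Atp5md, 209 to 239 CPM of Atp5c1 and 11.1 to 13.4 CPM of Ndufa12. RefSeq names pseudogenes for 43 of the 91 nuclear member symbols, 101 in all, including 4 for Atp5c1, 2 each for Uqcrb and Atp5md and 1 each for Cox6b1 and Ndufa12. The sources used here do not say how reads matching several copies were counted, so these values are uncertain. With identifiers of the same symbol summed, 37 members were called, 15 higher and 22 lower.

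**Figure D5:**
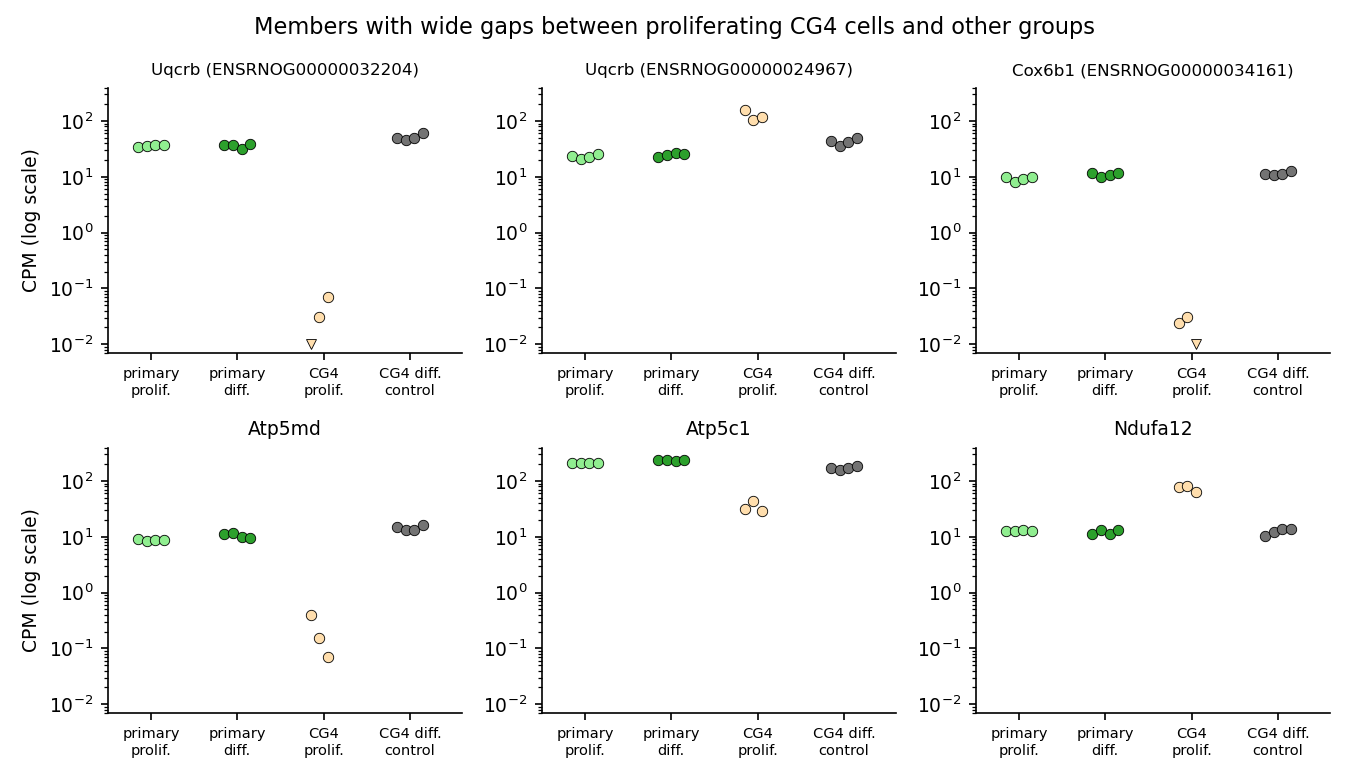
Levels of 6 identifiers in CPM on a log axis in the 15 libraries of proliferating and differentiating cells, with 1 point per library; downward triangles at the foot are libraries with 0 counts. The proliferating CG4 libraries stand apart from the other 12 in every panel, above them for Ndufa12 and the Uqcrb identifier ENSRNOG00000024967 and below them for the rest.

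The difference between the responses of the line and of primary cells was tested as an interaction. The vector and the read length differ between the 2 CG4 groups and not between the primary groups. They cannot be told apart from a difference between the line and primary cells. Of 76 members 53 differed, 13 with a higher and 40 with a lower response in CG4 cells, where 69.3% of all genes differed (33.8% and 35.4%). The member median was -0.35 against -0.03 over all genes, and 24 of 76 lay above the all-gene median. Under library totals the split was 28 higher and 17 lower, where 69.6% of all genes differed (46.2% and 23.4%). The member median was then 0.11 and the all-gene median 0.43. Ndufs4 went opposite ways, 0.97 in primary and -0.64 in CG4 cells (difference -1.57 ± 0.12, edgeR adjusted p = 2.21e-08). Cox6c rose in primary cells and had 0.37 ± 0.15 in CG4 cells, where it did not pass (difference -1.23 ± 0.15, 5.34e-06). Uqcrc2, a core protein of complex III, also went opposite ways (difference -1.16 ± 0.17, 2.07e-05). Complex II divided: Sdhc (-0.82 ± 0.09) and Sdhd (-0.60 ± 0.12) responded less in CG4 cells, Sdhb more (0.38 ± 0.09), and Sdha did not pass (-0.01 ± 0.12). Atp5if1 (0.88 ± 0.17) and Ndufaf2 (1.27 ± 0.18), which fell in primary cells, did not pass in CG4 cells and differed between them. Cox6a1 (1.29 ± 0.16), Ndufs7 (1.09 ± 0.24) and Cox4i1 (0.44 ± 0.10) responded more in CG4 cells. Ndufc2 and Ndufv3 rose in both, and their differences, -0.11 ± 0.15 and 0.15 ± 0.15, did not pass.

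In the lists around the chain the counts stand beside those of all genes, of which 65.8% were called in CG4 cells and 69.3% in the interaction. Of 20 genes for pyruvate entry and the citric acid cycle 2 were higher and 8 lower in differentiating CG4 cells, and against primary cells 2 had a higher and 12 a lower response (6 and 8 under library totals). Pc fell in CG4 cells (-1.21 ± 0.13, edgeR adjusted p = 7.95e-05) and rose in primary cells, a difference of -3.10 ± 0.13. Cs, citrate synthase, fell in CG4 cells (-1.03 ± 0.11). Tfam (-0.81 ± 0.12) and Polg (-1.15 ± 0.13) fell in CG4 as in primary cells, and Nrf1 fell in both (-1.16 ± 0.15 in CG4 cells). Esrra rose in CG4 cells (0.95 ± 0.19) and fell in primary cells, a difference of 2.59 ± 0.19. In CG4 cells 7 mitochondrial ribosomal proteins of 64 were higher and 20 lower, and against primary cells 15 had a higher and 24 a lower response (34 and 10 under library totals). The 5 of 6 astrocyte markers listed summed to 3.152 to 37.18 CPM in proliferating CG4 cells, with Aldh1l1 at 0, and to 285.3 to 2178 CPM in control. Proliferation markers summed to 2164 to 2444 and 307.7 to 374.3 CPM, and lineage markers to 5061 to 7158 and 12270 to 18630 CPM. Their part in these differences was not tested.

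The authors' deposited tables for the factors give an adjusted p under 0.05 to 7 members for Nkx2.2, 3 higher and 4 lower, and to 2 for Zfp488, both higher. Those for Nkx2.2 were Cox6a2, Mt-nd5 and Ndufaf8, higher, and Ndufs5, Uqcrc1, Sdha and Cox4i1, lower, which include all 3 called here, and those for Zfp488 were Ndufaf1 and Ndufc2. The sign of the change was the same for 105 of 106 members compared for Nkx2.2 and for 102 of 106 for Zfp488.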

How the data were processed

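Gene counts of 23 rat RNA-seq libraries were analysed. The authors deposited raw read counts per gene, for which the submitters' processing notes name build rn6 and the tools STAR 2.5.2b, Trimmomatic 0.36 and Subread 1.5.2 (featureCounts). The sources used here give neither the annotation release nor how strand and reads matching several genes were treated. The authors also deposited DESeq2 tables with log2 fold changes and p-values for each factor, which gave the symbols. The 16 per-sample columns in these tables were not used.

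Counts were filtered (filterByExpr), scaled (TMM) and tested over all genes by the quasi-likelihood method of edgeR 4.0.16 (R 4.3.3) with Benjamini-Hochberg adjustment and a threshold of 0.05. The 3 differentiating CG4 groups shared 1 fit, as did the 4 groups of the interaction, and primary cells and CG4 differentiation had 1 fit each. The procedure was tested on simulated data. Alternatives were DESeq2 1.42.0, RLE factors, no filter, leaving out each library, and a replicate block. Library totals alone, leaving out libraries numbered 3 and summing identifiers of 1 symbol were chosen after seeing the data. Members and lists were chosen with earlier results of these data known. Named were isoform genes, mitochondrially encoded genes, Sdha to Sdhd, Atp5if1 and, per comparison, up to 8 called rises and 8 falls by size at a mean of at least 5 CPM; of other lists mainly the genes with the smallest adjusted p, and further list genes were chosen after their values were seen.

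Deviations of same-numbered libraries correlated at 0.165 to 0.84 in the 12 differentiating CG4 libraries, all pairs over 0.1, so the numbers were taken to pair them. What a number stands for is not stated in the labels. They did not pair primary libraries (-0.145 to 0.229) or control with proliferating CG4 libraries (-0.09 to 0.107). P-values measure the spread between these libraries only. Some results are not reported here.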

Additional observations from a re-analysis of the deposited data

Results flagged for a closer look

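In groups of 4, some libraries stood apart from the other 3 by more than Dixon's 95% limit, which chance alone exceeds in about 1 in 20 groups. Every named identifier was checked in each such group, so a number of these cases would arise by chance alone. In differentiating CG4 cells the high ones, in CPM, were control library 4 for Sdhc (160) and Atp5h (201), control library 3 for Ndufaf7 (16.0), Nkx2.2 library 3 for Sdhd (128), Uqcrc2 (157) and Atp5mc2 (545), and Nkx2.2 library 4 for Cox4i1 (356). The low ones were Zfp488 library 4 for Atp5mc3 (149) and Cox7b (57.2). In proliferating primary cells library 2 was low for Cox6b1 (ENSRNOG00000024309, 96.6) and Ndufs7 (61.7), library 1 for Uqcrc2 (137) and library 4 for Ndufa4l2 (0.265). Library 2 was high there for Atp5h (151) and library 3 for Sdhb (155) and Ndufa11 (67.7). In differentiating primary cells library 1 was high for Cox6b1 (127) and library 3 low for Uqcrb (ENSRNOG00000032204, 32.2).

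The differentiation response differed between CG4 and primary cells in 53 of 76 members by the interaction test (edgeR). Of all genes 69.3% differed in that test (33.8% higher, 35.4% lower), a share close to that of the members. The vector and the read length, which differ between the CG4 groups only, cannot be told apart from this difference. Named members with a lower response in CG4 cells were, as log2 differences, Ndufa12 (-2.50), Uqcrb (ENSRNOG00000024967, -1.66), Ndufs4 (-1.57), Ndufaf5 (-1.41), Cox7b (-1.41), Ndufa3 (-1.26), Cox6c (-1.23), Uqcrc2 (-1.16), Sdhc (-0.82), Ndufa4 (-0.72), Sdhd (-0.60), Atp5mc3 (-0.58), Cox7a2l (-0.46), Atp5mc2 (-0.40) and Cox6b1 (ENSRNOG00000024309, -0.26). The last of these was lost, at an adjusted p of up to 0.0605, without control library 1 or 2, proliferating primary library 2 or differentiating primary library 1. Those with a higher response were Sdhb (0.38), Cox4i1 (0.44), Atp5if1 (0.88), Ndufaf6 (1.05), Ndufs7 (1.09), Ndufaf2 (1.27), Cox6a1 (1.29), Atp5c1 (2.18), Atp5md (5.80), Cox6b1 (ENSRNOG00000034161, 8.86) and Uqcrb (ENSRNOG00000032204, 10.40). The Uqcrb and Cox6b1 values at the end rest on 4 and 2 counts in proliferating CG4 cells, so their size depends on the prior count of the fit.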

How the results depend on the processing

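Called members ranged, with each library left out in turn, from 0 to 1 for Zfp488 against control, 1 to 7 for Nkx2.2 against control, 5 to 14 for Zfp488 against Nkx2.2, 62 to 66 for primary cells, 31 to 39 for CG4 differentiation and 50 to 56 for the interaction. DESeq2 called 1 for Zfp488 and 5 for Nkx2.2. Without the libraries numbered 3 there were 7 for Nkx2.2, and without Mt- genes 5 for Zfp488 against Nkx2.2, since 4 of the 9 are such genes. With the replicate block there were 5, 14 and 21 in the 3 factor comparisons and 25 for CG4 differentiation, where the numbers do not pair the libraries. Over all genes the block called 3576 against 1339 without it for Zfp488, 3876 against 1567 for Nkx2.2 and 6276 against 3741 between the factors. DESeq2 called 2116 for Zfp488, and leaving out a library gave as few as 458 genes for Zfp488 and 924 for Nkx2.2. Scaling by library totals alone, which lowers every primary change alike, reversed the primary changes of Cox6a1 (-0.24), Atp5mc3 (-0.38), Cox7a2l (-0.48), Ndufa4 (-0.30), Sdhb (-0.31), Sdha (-0.10), Atp5mc2 (-0.23), Cox4i1 (-0.31) and Cox6b1 (-0.20 for each identifier). It also reversed the interaction values of Cox7a2l (0.0079), Sdha (0.46), Atp5mc2 (0.0636) and Cox6b1 (ENSRNOG00000024309, 0.20). No other setting reversed a named member. Where no construction is named, the cause was not tested. Counts near 0, as for Cox6a2, limit what can be compared.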
